A study of Rattus norvegicus with 12 samples.

Results

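The circles described here are very short DNAs listed as circular in irradiated and untreated rat skin, in introns or between genes. Whether each listed entry is a true circle was not tested. They were chosen from the deposited list of extrachromosomal circular DNA (eccDNA) by 2 properties, a length under 150 bp (end minus start) and an annotation to an intron or to intergenic sequence. This left 4668 of 228353 listed eccDNA (2.04%), of which 1821 lay in introns and 2847 between genes, and these are called short circles below. The comparison class, longer circles, holds the 205547 intronic and intergenic eccDNA of 150 bp or more. Because a circle enters the list only when reads support it, the number and the length of the members are themselves readouts, and their lengths are described without a test.

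Circular DNA was sequenced by Circle-seq, in which linear DNA is digested with exonuclease and the remaining circles are made into libraries. All 12 libraries came from back skin of wild-type Sprague Dawley (SD) rats. The 3 groups of 4 libraries are untreated skin (control), skin irradiated 2 times with 5 Gy of electrons, 1 fraction a week (5 Gy x2), and skin irradiated 4 times in the same way (5 Gy x4), the irradiated skin being taken on day 7 after the last fraction. The sampling time of control skin is not given, and 5 Gy x4 skin was also sampled later than 5 Gy x2 skin, so dose and time cannot be told apart. Nothing in the labels ties each library to its own animal. The p-values below therefore describe the spread from library to library, part of which may be technical.

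EccDNA are pieces of chromosomal DNA that have closed into rings and left the chromosome, and they are found in healthy as well as damaged tissue. Most are far too small to carry a gene, and their sizes are often compared with the DNA wrapped on nucleosomes. Very short DNA is stiff and must be bent sharply for its ends to meet.

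The listed numbers mostly climbed with length, levelled off around the 150 bp limit and rose again beyond it. The median short circle was 112 bp long, with quartiles of 80 and 134 bp and a range of 8 to 149 bp. In bins of 10 bp the list held 41 circles of 10 to 19 bp, 166 of 40 to 49 bp and 410 of 100 to 109 bp. It held 762 of 130 to 139 bp and 759 of 140 to 149 bp. Just outside the limit, the bin of 150 to 159 bp held 721, after which the list grew steeply to 7809 circles of 200 to 209 bp. The limit does not fall in a gap of the lengths. A further 269 listed eccDNA under 150 bp were left out by annotation, 92 in exons, 97 within 2 kb upstream and 80 within 2 kb downstream of a gene.

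**Figure D1:**
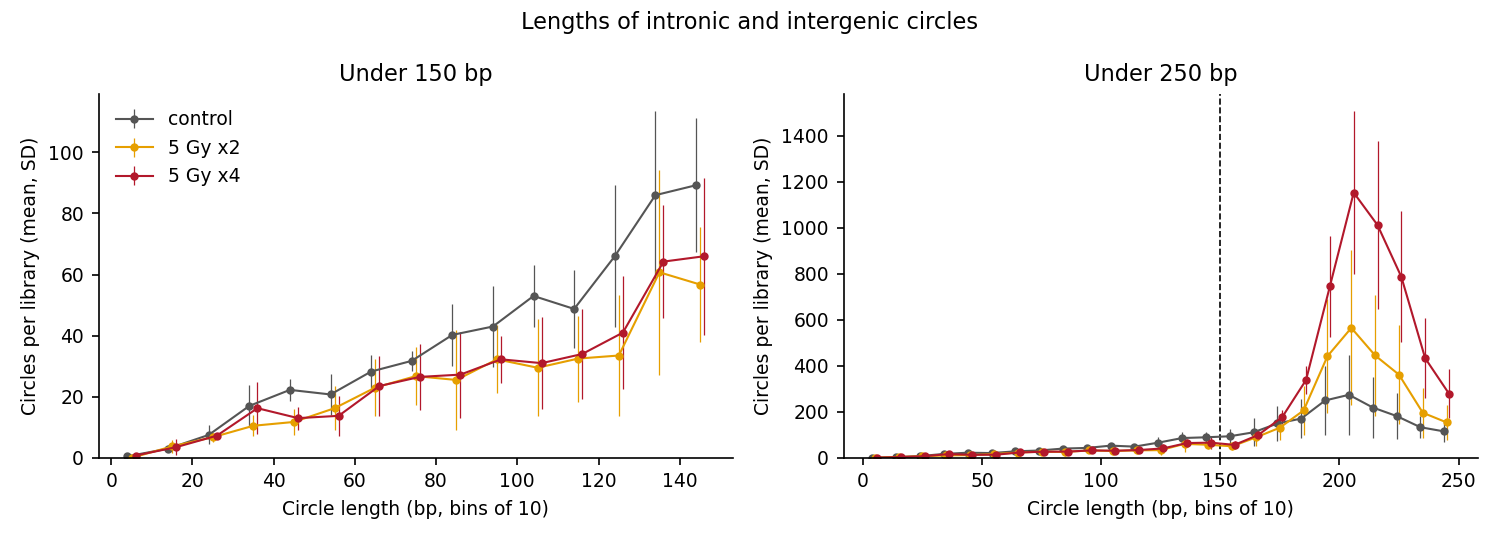
Circles per library (mean and SD of 4 libraries) against circle length in bins of 10 bp, for intronic and intergenic circles under 150 bp (left) and under 250 bp (right, dashed line at 150 bp). In the bin of 140 to 149 bp control libraries averaged 89.3 circles, 5 Gy x2 libraries 56.8 and 5 Gy x4 libraries 66.0, whereas the bin of 200 to 209 bp averaged 274, 565 and 1153 in the same order.

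Irradiated libraries held somewhat fewer short circles than control libraries, but the numbers overlapped. Control libraries had 413, 702, 607 and 507 short circles (557 ± 125, SD, n = 4). The 5 Gy x2 libraries had 384, 557, 345 and 192 (370 ± 150). The 5 Gy x4 libraries had 330, 379, 609 and 283 (400 ± 145). Two-sided exact permutation tests of the means gave 0.718-fold for 5 Gy x4 against control (p = 0.171) and 0.663-fold for 5 Gy x2 against control (p = 0.114). The 5 Gy x4 libraries had 1.08-fold the number of 5 Gy x2 (exact permutation p = 0.83). None of these differences passed the test, although both irradiated means lay below control by more than 1 SD of a group, and the ranges overlapped. In bulk skin, fewer cells with such circles and fewer circles per cell cannot be told apart.

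As a share of all circles in a library, short circles were lower after irradiation in every library. Control libraries had 8.61, 7.43, 5.84 and 14.1% short circles (8.99 ± 3.58%, SD, n = 4). The 5 Gy x2 libraries had 2.02, 1.94, 1.26 and 3.04% (2.06 ± 0.733%), and the 5 Gy x4 libraries 1.49, 0.848, 1.32 and 1.41% (1.27 ± 0.288%). Neither irradiated group overlapped control, and the 4 values of 5 Gy x4 were the closest together. The share was 0.141-fold in 5 Gy x4 and 0.229-fold in 5 Gy x2 relative to control, each with an exact permutation p of 0.0286, which is the smallest that 4 libraries against 4 allow. After Benjamini-Hochberg adjustment over the 21 tests of 7 measures these p-values were 0.15, so they do not pass an adjusted threshold of 0.05. With 4 libraries a group, passing it would need many of the 21 tests at that smallest p. Between 5 Gy x4 and 5 Gy x2 the share was 0.614-fold (exact p = 0.114) and the groups overlapped.

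The denominator moved in the opposite direction to the number of short circles. Control libraries listed 7058 ± 3360 eccDNA of all kinds, 5 Gy x2 libraries 20383 ± 10319 and 5 Gy x4 libraries 33273 ± 14081 (SD, n = 4 each). When circles of 330 to under 420 bp, the commonest sizes, were left out of the denominator, short circles made up 12.9 ± 2.75% of control, 6.05 ± 1.53% of 5 Gy x2 and 3.83 ± 0.659% of 5 Gy x4 libraries. Numbers also depend on how many reads a library has, and eccDNA were supported by 34499 to 397674 reads per library. Drawn down to 34499 reads, control libraries were expected to hold 453 ± 37.9 short circles, 5 Gy x2 libraries 230 ± 63.6 and 5 Gy x4 libraries 195 ± 46.3. At this equal number of reads the folds were 0.429 for 5 Gy x4 and 0.506 for 5 Gy x2 against control (exact permutation p = 0.0286 each). Per 1000 supporting reads the folds against control were 0.277 for 5 Gy x4 (exact permutation p = 0.0571) and 0.449 for 5 Gy x2 (exact p = 0.171). The drawn-down number alone of these 3 ways of counting passed the unadjusted threshold. A draw of reads that support circles fixes the reads spent on all circles, so it too is relative to the longer circles of the library, and total sequencing depth is unknown.

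The share of reads gave the same order of groups as the share of circles. Short circles took 6.84, 4.81, 4.49 and 7.73% of supporting reads in control libraries (5.97 ± 1.57%, SD, n = 4). They took 2.25, 1.91, 1.20 and 3.32% in 5 Gy x2 libraries (2.17 ± 0.882%) and 1.31, 0.950, 1.43 and 1.28% in 5 Gy x4 libraries (1.24 ± 0.205%). Again neither irradiated group overlapped control, with 0.208-fold for 5 Gy x4 and 0.364-fold for 5 Gy x2 (exact permutation p = 0.0286 each, adjusted p = 0.15).

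**Figure D2:**
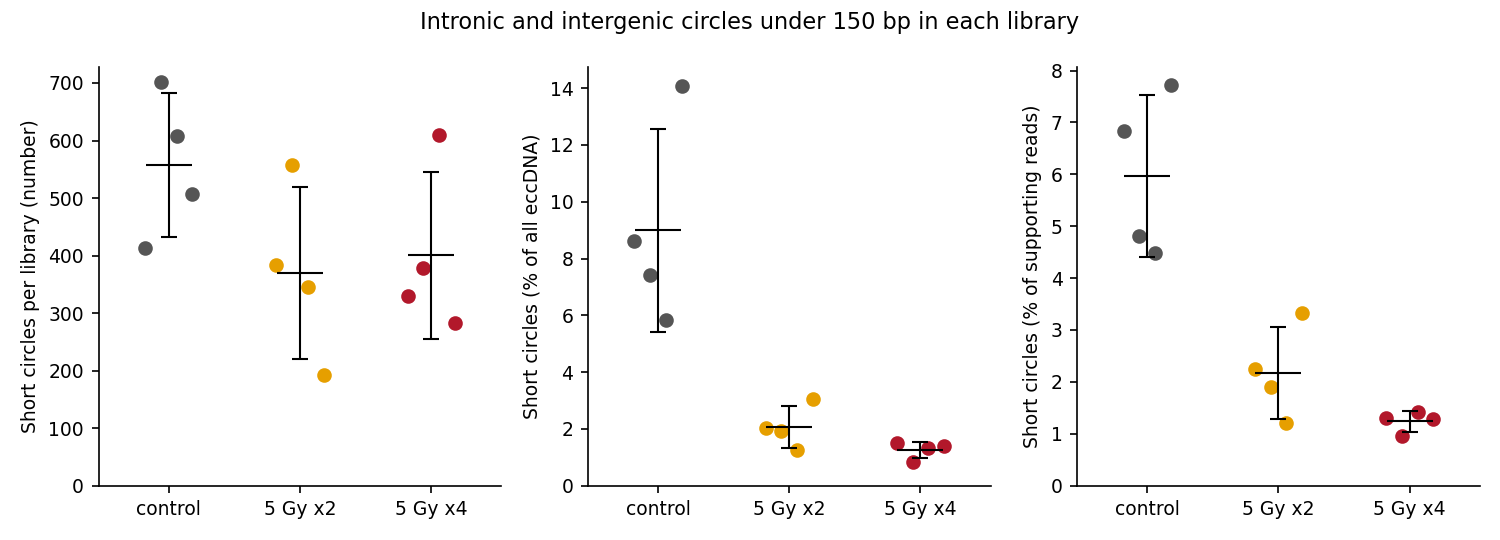
Short circles in each library (points), with the mean and SD of the 4 libraries of a group (black), as the number listed, the percent of all eccDNA and the percent of supporting reads. The numbers overlap between groups, from 192 to 702, whereas the percent of eccDNA is 5.84 or more in every control library and 3.04 or less in every irradiated library.

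Within the class of short circles, no other measured property differed between the groups beyond the spread. Mean support was 8.52 ± 4.28 reads per short circle in 5 Gy x4 and 10.9 ± 4.82 in control (exact permutation p = 0.514, SD, n = 4 each), and 11.3 ± 8.48 in 5 Gy x2 (p = 0.971 against control). The intronic share was 39.3 ± 3.10% in 5 Gy x4, against 40.5 ± 2.22% in control (exact p = 0.543). It was 38.5 ± 1.21% in 5 Gy x2 (exact p = 0.171 against control). Median length ran from 105 to 116 bp over the 12 libraries. The label hconf, a class in the deposited tables that they do not define, was on 46.4 ± 4.36% of short circles in 5 Gy x4 and 47.2 ± 3.66% in control (exact p = 0.80), and on 44.7 ± 5.84% in 5 Gy x2 (exact p = 0.543 against control). Circles under 50 bp made up 8.26 to 9.72% of short circles per control library, 5.75 to 12.5% per 5 Gy x2 library and 9.19 to 12.1% per 5 Gy x4 library, ranges that overlap.

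Short circles differed from longer circles of the same libraries in where they lay. The comparison within a library shares depth and handling, so each of the 12 libraries gives a pair of values, and the sign-flip test has a smallest p of 0.000488. Of the short circles, 39.4 ± 2.27% were intronic, against 35.1 ± 0.953% of longer circles (SD, n = 12). The short circles were the more intronic in 12 of 12 libraries, by 4.32 percentage points on average (exact sign-flip p = 0.000488, adjusted p = 0.00122 over 5 tests). Both classes leave out exonic and gene-flanking circles. The annotation of a circle may itself depend on its length, and this was not tested.

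Short circles were also more often in gene-dense sequence. The genome was divided into 291 windows of 10 Mb, and the 73 windows with most genes were called gene-dense. Genes were counted as those with an exonic or intronic circle of 150 bp or more, since no annotation of the build was used, so the gene number follows the longer circles too. Gene-dense windows held 34.4 ± 3.82% of short circles, against 28.0 ± 2.90% of longer circles (SD, n = 12). The difference of 6.32 points was positive in 11 of 12 libraries (exact sign-flip p = 0.000977, adjusted p = 0.00716 over 22 tests added after the data were seen), and 5 Gy x2 replicate 4 was the exception at 27.1 against 28.1%. The median gene-dense window listed 22 short circles against 12 in the other windows. The same medians for longer circles were 783 and 753.5. Across windows the number of short circles and the number of genes had a Spearman correlation of 0.65, and longer circles and genes one of 0.34, which is a description of windows that share the same libraries.

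**Figure D3:**
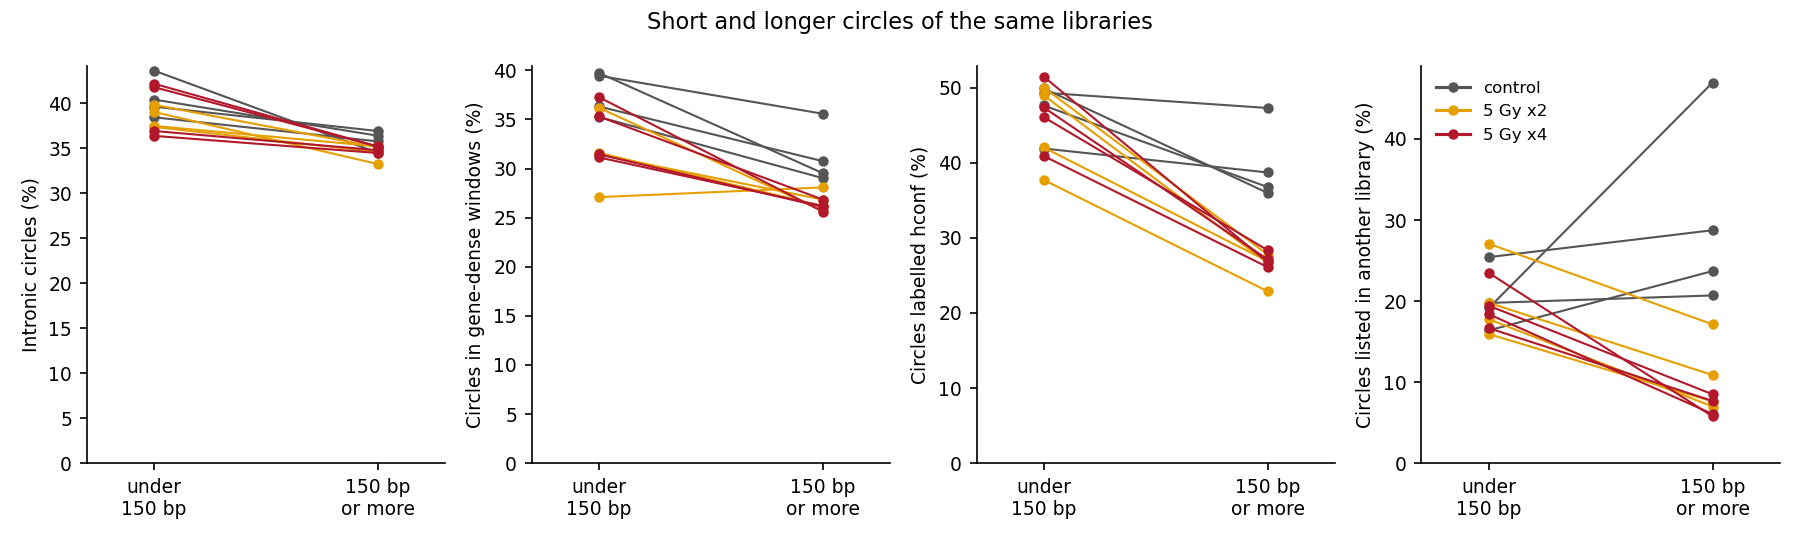
Percent of short (left) and longer (right) circles that are intronic, lie in gene-dense windows, carry the label hconf or are listed in another library. Each line joins the values of 1 of the 12 libraries. The intronic and hconf lines all run downward, as do 11 of the 12 gene-dense lines, while the last panel has control lines running upward and irradiated lines running downward.

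The windows richest in short circles lay on chromosomes 12, 5, 6 and 19. The window of chromosome 12 from 40000001 to 50000000 listed 59 short circles, the most of any window, followed by 51 in the window of chromosome 5 that starts at 150000001, 50 in that of chromosome 6 at 130000001 and 47 in that of chromosome 19 at 50000001. The first of these held 94 of the counted genes and 75.1 short circles per 1000 longer ones. Only 4 of the 291 windows listed no short circle.

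By chromosome, short circles were most concentrated on chromosome 12 and sparsest on X. The list held 3.98 short circles per Mb on chromosome 12, 2.42 on chromosome 20, 2.23 on chromosome 19 and 1.67 on chromosome 1, with 0.419 on X, where length was taken to the last listed base. In this pooled list longer circles spread more evenly, with 71.1 per Mb on chromosome 12, 72.1 on chromosome 1 and 35.7 on X. Irradiated libraries listed more eccDNA than control libraries on average, so they weigh more in that density. In control libraries chromosome 12 held 3.58% of longer and 5.29% of short circles on average. The 5 Gy x2 means were 1.90 and 4.50%, and those of 5 Gy x4 were 1.74 and 4.12%. In single libraries chromosome 12 held 4.64 ± 0.914% of short circles, against 2.41 ± 0.990% of longer circles (SD, n = 12). The share was higher in 11 of 12 libraries (exact sign-flip p = 0.000977, adjusted p = 0.00163 over 5 tests), and control replicate 4 was the exception, at 4.14 against 4.86%. The remaining chromosomes were adjusted over the 22 added tests, so their adjusted p-values are not comparable with that of chromosome 12. Chromosome 7 held 6.44 ± 0.783% of short and 5.15 ± 0.273% of longer circles, higher in 12 of 12 libraries (exact p = 0.000488, adjusted p = 0.00537). Chromosome X held 1.47 ± 0.889% of short and 2.98 ± 0.322% of longer circles, lower in 11 of 12 (exact p = 0.00146, adjusted p = 0.00806). Chromosomes 13 and 15 were lower as well, by 0.90 and 0.78 percentage points (exact p = 0.00342 and 0.00195, adjusted p = 0.0125 and 0.00859). The other chromosomes did not pass the adjusted threshold.

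**Figure D4:**
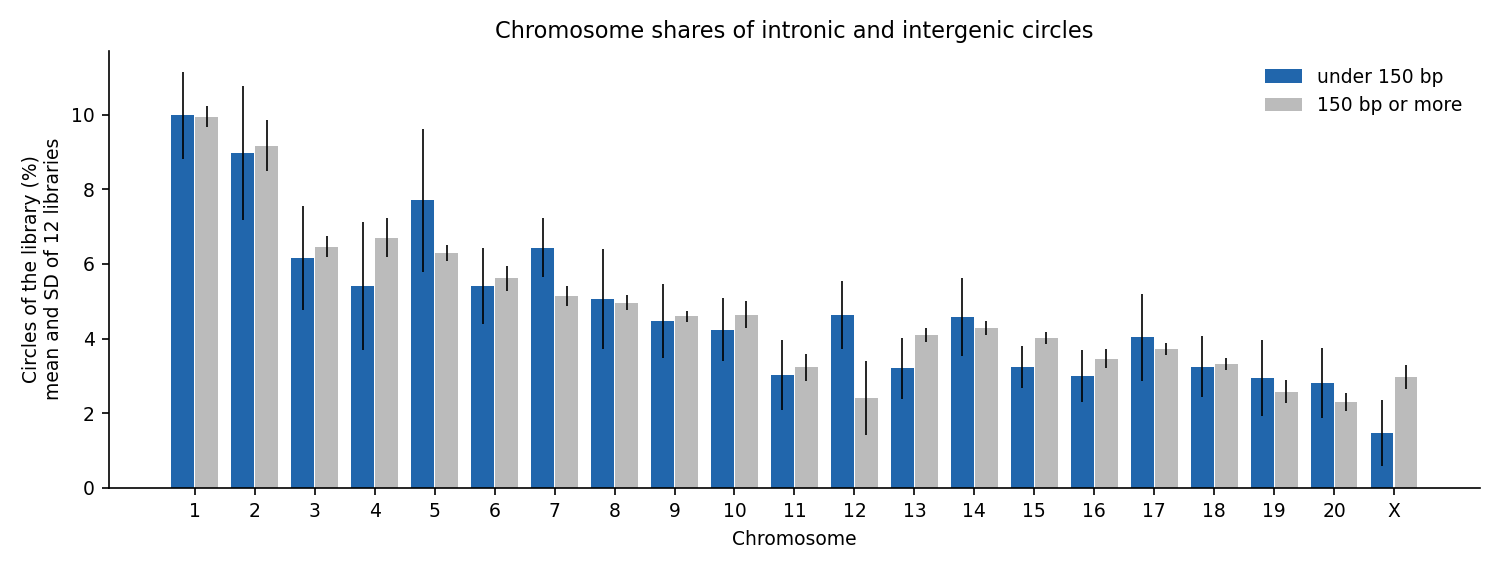
Percent of a library's short circles (blue) and longer circles (grey) on each chromosome, as the mean and SD of 12 libraries. Chromosome 12 stands at 4.64% of short and 2.41% of longer circles, and X at 1.47% of short and 2.98% of longer circles.

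For gene-dense windows and chromosome 12, these positional preferences did not differ beyond the spread between groups. For gene-dense windows the short circles gave 33.8 ± 3.00% in 5 Gy x4 and 37.7 ± 2.24% in control (exact permutation p = 0.143, SD, n = 4 each). The 5 Gy x2 value was 31.6 ± 3.72% (exact p = 0.0571 against control). Longer circles were lower in both, at 26.2% in 5 Gy x4 and 26.7% in 5 Gy x2, against 31.2% in control (exact p = 0.0286 each). The change in short minus longer circles was 1.14 points for 5 Gy x4 and -1.59 points for 5 Gy x2 against control, with exact p of 0.629 and 0.60. On chromosome 12 the share of short circles was 4.12 ± 0.255% in 5 Gy x4, against 5.29 ± 1.27% in control (exact p = 0.0857), and longer circles had 1.74 against 3.58% (exact p = 0.0286). The difference between these changes had an exact p of 0.657.

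A count model of short circles per chromosome called no chromosome. With edgeR's quasi-likelihood test and Benjamini-Hochberg adjustment, 0 of 20 chromosomes passed in 5 Gy x4 against control, 0 in 5 Gy x2 against control and 0 in 5 Gy x4 against 5 Gy x2 (percent called 0 in each), with 3, 1 and 1 chromosomes at an unadjusted p under 0.05. DESeq2 also called 0 in each. Chromosome X had too few short circles to enter the fit. Chromosome 11 had the lowest p in 5 Gy x4 against control, at 2.09 ± 0.199% of short circles in 5 Gy x4 and 3.70 ± 0.766% in control (adjusted p = 0.162, chosen after its values were seen).

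Most short circles were seen in a single library. Of the 4668, 4278 had reads in 1 library, 268 in 2, 61 in 3 and 61 in 4 or more. Per library, 15.9 to 27.1% of short circles were also listed in another library. Control libraries averaged 20.2 ± 3.79%, 5 Gy x2 libraries 20.1 ± 4.88% and 5 Gy x4 libraries 19.5 ± 2.89%, with exact permutation p of 0.743 for 5 Gy x4 and 1 for 5 Gy x2 against control. For longer circles the share listed in another library was 7.00% in 5 Gy x4 and 10.6% in 5 Gy x2, against 30.0% in control (exact p = 0.0286 each). Relative to control, short minus longer circles was 22.3 points higher in 5 Gy x4 and 19.3 points higher in 5 Gy x2 (exact permutation p = 0.0286 each, adjusted p = 0.214 over 15 tests added after the data were seen). Over all 12 libraries the share was 19.9 ± 3.58% for short and 15.9 ± 12.5% for longer circles (exact sign-flip p = 0.278). Short circles had the higher share in the 8 irradiated libraries and the lower share in the 4 control libraries. The pooled test therefore mixes groups that run in opposite directions and describes neither alone. It also moved with control replicate 4, where 47.0% of longer circles recurred. Without that library the difference was 6.94 points (exact sign-flip p = 0.0176). How circles from different libraries came to share 1 entry is not given in the sources used here, so recurrence means an entry with reads in more than 1 library.

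Of the 390 recurrent short circles, 136 had the same start and end in every library that listed them, and 272 varied by at most 10 bp at either end. By group, 56 were listed in all 3 groups, 100 in control and 5 Gy x4, 85 in control and 5 Gy x2 and 58 in both irradiated groups, while 54 were listed in control alone, 14 in 5 Gy x2 alone and 23 in 5 Gy x4 alone. Those found in control alone were 13.8% of recurrent short circles, beside 7.75% of all 8931 recurrent eccDNA. Those found in irradiated libraries alone were 3.59% (5 Gy x2), 5.90% (5 Gy x4) and 14.9% (both), beside 6.67, 14.7 and 27.0% of all recurrent eccDNA. Those in control and 1 irradiated group were 21.8% (with 5 Gy x2) and 25.6% (with 5 Gy x4), beside 14.6 and 16.0%, and those in all 3 groups 14.4%, beside 13.3%. These shares are descriptive, and the libraries differ in the number of circles they list. Positions below are rn6, counted from 1.

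One short circle was present in all 12 libraries. It is an intergenic circle of 61 bp at chr18:4696251-4696311, with 568, 227, 273 and 155 supporting reads in control, 192, 254, 377 and 103 in 5 Gy x2 and 212, 193, 374 and 222 in 5 Gy x4 libraries. Its 3150 reads were the most of the circles named here, and its positions varied by at most 5 bp. Per 10000 eccDNA reads it had 11.3 ± 6.70 in 5 Gy x4 and 53.3 ± 74.3 in control libraries (SD, n = 4 each), and the control spread comes from control replicate 1, the library with fewest reads.

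Next came a pair of intronic circles, each in 11 libraries and each missing from 5 Gy x2 replicate 4. The first, of 39 bp at chr2:27312873-27312911, lies in an intron of Polk, which encodes a DNA polymerase that copies past damaged bases. It had the same start and end wherever it was listed. Its reads were 100, 142, 112 and 24 in control, 36, 94, 15 and 0 in 5 Gy x2 and 6, 177, 161 and 63 in 5 Gy x4 libraries, so the groups overlapped. The second, of 59 bp at chr7:134543130-134543188, lies in an intron of Yaf2, a component of Polycomb repressive complexes, and had between 1 and 24 reads in the libraries that listed it.

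A circle of 121 bp on chromosome 1 was listed in every control and 5 Gy x2 library and in no 5 Gy x4 library. This intergenic circle at chr1:7812569-7812689 had 7, 11, 14 and 10 reads in control and 33, 5, 24 and 21 in 5 Gy x2 libraries, and 0 in all 4 libraries of 5 Gy x4. Another circle, of 59 bp at chr12:14718298-14718356 in an intron of ENSRNOG00000001103 (no symbol in the deposited table), had 5, 8, 12 and 40 reads in control libraries and 0 in all 8 irradiated libraries. It was picked out after its values were seen. Of the 3458 short circles listed in either group, these 2 were in all 4 control libraries and no 5 Gy x4 library, a pattern that 0.00977% of all eccDNA showed. Of 3355, 1 was in all 4 control libraries and no 5 Gy x2 library, against 0.0126% of all eccDNA. For circles in all 4 libraries of 5 Gy x2 and none of 5 Gy x4 the count was 1 of 2822 short circles, against 0.0029% of all eccDNA. In the opposite direction, 0 short circles were listed in all 4 libraries of 5 Gy x4 and in none of control (all eccDNA 0.00195%) or of 5 Gy x2 (0.00242%), and 0 in all 4 of 5 Gy x2 and none of control (0.00194%). At the reads these circles had, a 0 is not proof of absence.

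The remaining circles found in most libraries were patchy. A circle of 141 bp at chr1:148626621-148626761 had 152, 0, 188 and 99 reads in control, 40, 0, 81 and 26 in 5 Gy x2 and 193, 112, 0 and 0 in 5 Gy x4 libraries. A circle of 70 bp at chr15:88665187-88665256 lies in an intron annotated to both Mycbp2, an E3 ubiquitin ligase of the nervous system, and Obi1, a ubiquitin ligase that acts at replication origins. It had 76, 12, 55 and 164 reads in control, 0, 35, 0 and 0 in 5 Gy x2 and 0, 31, 0 and 103 in 5 Gy x4 libraries. The other named circles of this kind were 146 bp in an intron of AC099384.2 (9 libraries), and intergenic circles of 89 bp on chromosome 14 (8 libraries), 99 bp on chromosome 2 (8 libraries) and 122 bp on chromosome 2 (7 libraries).

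**Figure D5:**
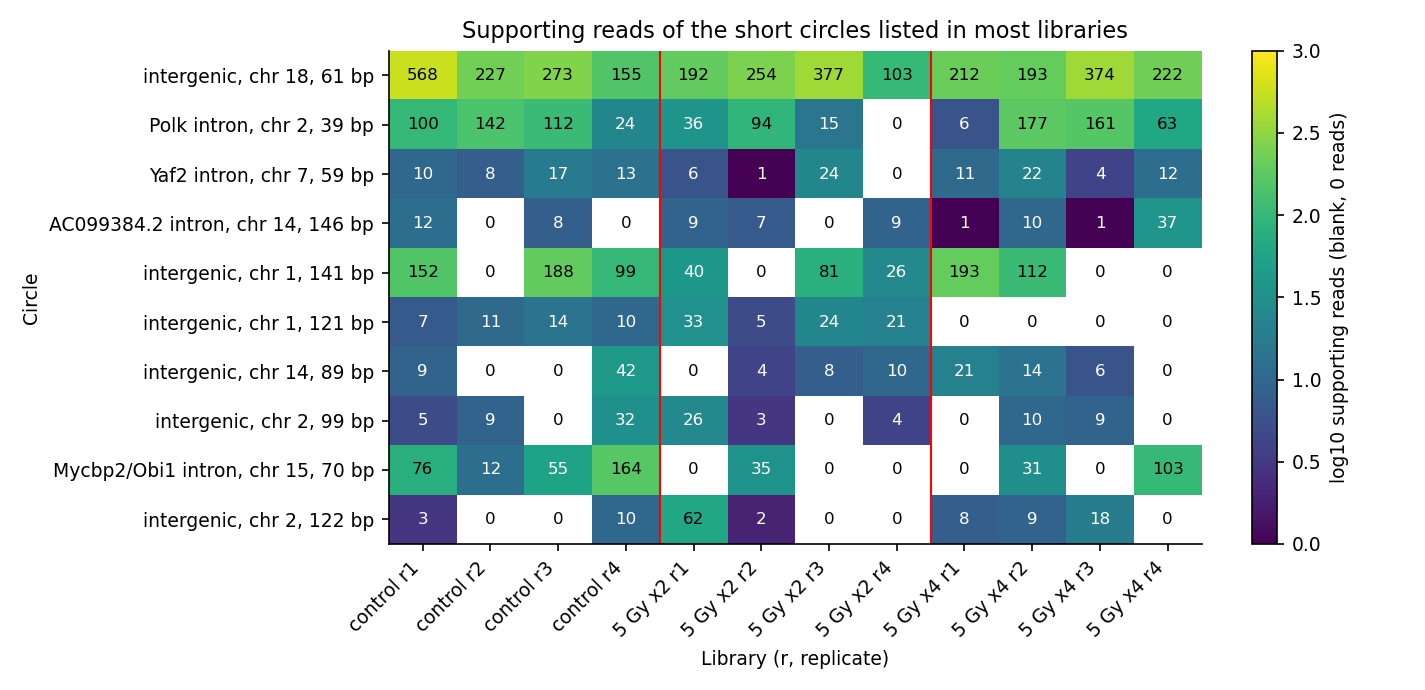
Supporting reads of the 10 short circles listed in most libraries (rows) in each library (columns, red lines between groups), coloured on a log10 scale with 0 reads left blank. The 61 bp circle of chromosome 18 has 103 or more reads in every library, and the 121 bp circle of chromosome 1 has 0 in the 4 libraries of 5 Gy x4.

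The 5 other circles with most reads in 1 library were listed in 1 to 5 libraries. A 69 bp circle at chr12:51694616-51694684 in an intron of Ttc28 had 303 reads in control replicate 3, 260 in 5 Gy x2 replicate 1 and 205 in 5 Gy x2 replicate 4, with identical ends, and 0 in the other 9 libraries. A 42 bp circle at chr6:26005486-26005527 in an intron of Babam2, whose product belongs to complexes that recognise ubiquitin at DNA breaks, had 172, 101, 107 and 0 reads in control, 0, 87, 0 and 0 in 5 Gy x2 and 0 in all 4 libraries of 5 Gy x4. An intergenic circle of 117 bp on chromosome 17 had 175 reads, all in control replicate 2. An intergenic circle of 102 bp on chromosome 7 had 172 reads in 5 Gy x2 replicate 1 and at most 14 in the other libraries. An intergenic circle of 83 bp on chromosome 2 had 162 reads in 5 Gy x2 replicate 1 and 62 in control replicate 4, and 0 elsewhere. At the other extreme, 1090 short circles had 1 read in all. The shortest member, 8 bp in an intron of Nrxn3, a synaptic adhesion gene, rested on 1 read.

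Reads per circle could be tested for few members. In an edgeR quasi-likelihood fit of all eccDNA, 733 circles had enough reads, 21 of them short. With Benjamini-Hochberg adjustment 0 short circles passed in 5 Gy x4 against control (percent called over all circles tested 0.136), 0 in 5 Gy x2 against control (0) and 0 in 5 Gy x4 against 5 Gy x2 (0.136), with 3, 1 and 2 short circles at an unadjusted p under 0.05. Those 3 were the Babam2 circle, the 121 bp circle of chromosome 1 and the 59 bp circle of chromosome 12. Their smallest adjusted p was 0.247 for 5 Gy x4 against control. DESeq2 called the Babam2 circle alone among the short circles, in 5 Gy x4 against control (adjusted p = 1.03e-11) and in 5 Gy x4 against 5 Gy x2 (adjusted p = 8.83e-11). All 4 libraries of 5 Gy x4 were at 0, and the second call rests on 1 library of 5 Gy x2, since the other 3 were at 0 too. Median log2 fold changes of the 21 were -0.78, -0.39 and -0.11 in the same order of comparisons, beside -0.27, -0.15 and -0.14 over all 733 circles, and since a circle can pass the filter through 1 group alone, these medians only describe. The common dispersion of the fit was 5.31. On counts simulated with the fitted dispersions of single circles, whose median was 5.89, the edgeR test recovered 0% of 200 circles changed 8-fold, so the absence of calls says little about changes of that size.

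The deposited tables carry further readouts on which short and longer circles differ. Besides hconf, the undefined labels are conf and lconf. Of the short circles 40.3% were hconf, 47.7% conf and 12.1% lconf, against 26.2, 13.2 and 60.6% of longer circles. Within libraries 46.1 ± 4.40% of short circles and 30.9 ± 7.13% of longer circles were hconf, higher in 12 of 12 (exact sign-flip p = 0.000488, adjusted p = 0.00122). The median of the mean read depth over a circle was 25.5 ± 14.4 for short and 10.6 ± 12.8 for longer circles, again higher in 12 of 12 libraries (exact p = 0.000488, adjusted p = 0.00537, among the 22 added tests). Reads that support the junction did not follow this, with 10.3 ± 5.71 per short and 12.2 ± 8.14 per longer circle (exact p = 0.168). A discordant read pair supported 4.28% of short circles, against 9.39% of longer ones. Label, depth and pair support may each depend on circle length by their construction, and this was not tested.

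Most short circles did not lie inside another listed eccDNA. Here all nuclear eccDNA outside the class of short circles were considered, whatever their annotation. Of the 4668, 740 (15.9%) lay inside such an eccDNA, 259 of them inside one listed in the same library. Short circles overlapped each other little, giving 4441 separate loci, of which 205 held 2 or more short circles and none held more than 4.

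The intronic members were spread over many genes. The 1821 circles touched introns of 1412 genes, of which 1107 had 1 short circle and 17 had 5 or more. Genes are ranked below by number, not by the share of their intronic circles that were short. Mycbp2 on chromosome 15 had the most, 11 short circles of 36 to 148 bp among its 497 intronic circles of any length, between 88649373 and 91617595. They were listed in all 4 control, 3 of 5 Gy x2 and 2 of 5 Gy x4 libraries. Dock9, which encodes an activator of the small GTPase Cdc42 and also lies on chromosome 15, had 8 short circles among 36. Galnt17, of the glycosyltransferases that start mucin-type glycosylation, had 6 among 69 on chromosome 12. Cdh13, encoding T-cadherin, and Rbms3, encoding an RNA-binding protein, had 6 each, among 115 and 114 intronic circles. AABR07040864.1 on chromosome X, the kainate receptor gene Grik3 and the endocytic adaptor gene Ehbp1 had 5 each. Other genes also had 5, and these 3 are named because they had the most supporting reads among them. Grik3 and Ehbp1 circles were seen in control and 5 Gy x2 libraries and in 0 of 4 libraries of 5 Gy x4, and at these small counts no test was made.

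Counts in 4 gene lists were small for short circles and are given beside the same lists' shares of longer circles, without a test. Of 20 epidermal keratinocyte genes 1 had any, Lgr6, a receptor of hair follicle stem cells, with 3 circles in 2 control libraries. Of 20 extracellular matrix and fibrosis genes 0 had any, although 15 had an intronic circle of some length. Of 25 DNA damage response and repair genes 2 had any. Nbn, of the complex that senses DNA breaks, had 2 circles with 70 reads, listed in 3 control and 1 of 5 Gy x4 libraries, and Msh3, a mismatch repair gene, had 1 in a single control library. These lists made up 0.165, 0 and 0.165% of short intronic circles, beside 0.0967, 0.164 and 0.175% of longer intronic circles. Of 20 long neuronal genes, a list of long introns, 8 had 18 short circles, led by Cdh13 (6) and by Dlg2 (3), which encodes a postsynaptic scaffold. They were 0.988% of short and 1.53% of longer intronic circles. The long neuronal circles were called 7 times among control libraries, 7 times among 5 Gy x2 libraries and 6 times among 5 Gy x4 libraries.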

How the data were processed

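The authors deposited, per the file headers, whole-number counts of supporting reads for each circle in each library, with no normalization, and a table of positions, annotation, labels and the mean coverage per calling library, an other unit given as deposited. BWA, Picard and bedtools and the build rn6 appear in the submitters' processing notes. Which caller found the circles, how entries were merged and what hconf, conf and lconf mean is not given in the sources used here. Starts were moved to count from 1. Reads were amplified without molecular identifiers.

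A circle was present in a library at 1 or more supporting reads. Group means were compared by two-sided exact permutation tests over 70 splits of 8 libraries, and short with longer circles by exact sign-flip tests over 12 libraries (scipy 1.17.1, pandas 2.3.3, numpy 2.4.6, Python 3.11.15), with Benjamini-Hochberg adjustment. Reads per circle and short circles per chromosome were fitted with edgeR 4.0.16 (TMM, filterByExpr, quasi-likelihood F test) in R 4.3.3 on the deposited counts, with DESeq2 1.42.0 as an alternative. On simulated counts with dispersion 0.2, edgeR recovered 98.5% of 200 circles changed 8-fold in 5 Gy x4 against control (733 circles). Supporting reads on eccDNA ran from 34499 to 397674 per library. Drawn-down numbers are hypergeometric expectations at 34499 reads.

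Circles named were the 10 in most libraries, the 5 others with most reads in 1 library, the shortest and the longest, those past the edgeR threshold (none), the 8 genes with most short intronic circles and the leading 2 of each gene list. Ties among the 10 circles and among the 8 genes went to those with more supporting reads. The longest is an intergenic circle of 149 bp on chromosome 2, listed in 5 libraries. The members, gene lists and tests were chosen with earlier results of these data known. No sequence of the build rn6 was used, and the ecDNA table was not analysed here.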

Additional observations from a re-analysis of the deposited data

How the results depend on the processing

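The shares of short circles among eccDNA and among reads stayed below control in both irradiated groups under each alternative tried (2 supporting reads, limits of 130 or 170 bp, all annotation types pooled, merged loci where applicable, no mitochondrial circle, and a denominator without 330 to under 420 bp). Leaving out 1 library gave 0.126- to 0.174-fold for 5 Gy x4 and 0.193- to 0.283-fold for 5 Gy x2 in the share of eccDNA, and 0.192 to 0.231 and 0.299 to 0.418 in the share of reads, each at exact p = 0.0571, the smallest that 3 against 4 allow. With replicate number as a block these 4 folds were 0.141, 0.229, 0.208 and 0.364 at exact sign-flip p = 0.125, the smallest possible with 4 pairs. Deviations in reads per circle showed no sign of pairing. Libraries of the same number had correlations from -0.111 to 0.0473 over 12 pairs, and those of different number from -0.117 to 0.109 over 36 pairs. Reads per circle are sparse, so this check cannot settle whether the numbers pair the samples. The share between 5 Gy x4 and 5 Gy x2 ran from 0.543 to 0.729 (eccDNA) and from 0.498 to 0.695 (reads).

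The number of short circles did depend on settings. Drawn down, it was 0.429-fold in 5 Gy x4 and 0.506-fold in 5 Gy x2 against control and passed the unadjusted threshold, whereas per 1000 supporting reads it was 0.277-fold (exact p = 0.0571) and 0.449-fold (exact p = 0.171) and did not pass. The comparison of 5 Gy x4 with 5 Gy x2 turned to 0.848 when drawn down and 0.617 per 1000 supporting reads. Leaving out 1 library gave 0.593 to 0.788, 0.551 to 0.769 and 0.895 to 1.30 for 5 Gy x4 against control, 5 Gy x2 against control and 5 Gy x4 against 5 Gy x2. In the same order of comparisons, mean reads gave 0.599 to 0.913, 0.670 to 1.28 and 0.579 to 1.16-fold. Differences in intronic percent ran from -2.17 to -0.18, from -2.79 to -1.06 and from -0.0681 to 1.87 points. Recurrent percent gave -2.01 to 1.07, -2.34 to 1.72 and -2.06 to 1.66, and hconf percent -2.50 to 1.12, -4.27 to -0.17 and -0.56 to 3.61. Recurrent percent, which passed no test, changed sign at a limit of 130 bp (0.948, 0.306 and 0.642), with all annotation types pooled (0.243 for 5 Gy x2 against control) and at 2 reads (0.0895 for 5 Gy x4 against 5 Gy x2). The cause was not tested.

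Within libraries, leaving out 1 gave differences of 3.88 to 4.54 points (intronic), 14.3 to 16.4 (hconf), 2.10 to 2.50 (chromosome 12), 2.80 to 6.94 (recurrent) and -2.33 to -0.72 reads. Against circles of 330 to under 420 bp, recurrence passed (9.45 points, exact sign-flip p = 0.0322) and mean reads turned to 1.14. Calls of short circles by edgeR stayed at 0 with any library left out, and DESeq2 gave 1 in 5 Gy x4 against control and 1 in 5 Gy x4 against 5 Gy x2. Chromosome calls stayed at 0 for short circles, while longer circles gave 9 and 8 for 5 Gy x4 and 5 Gy x2 against control. Depth limits reads per circle and all absences. Alternatives with the mitochondrial circle, the denominator and circles in 1 library were chosen after seeing the data.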
